A study of Mus musculus with 6 samples.

Results

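The genes described here are 9 genes of the cell senescence and p53 axis. Their RNA was measured by sequencing in adipocytes of mice with and without a fat cell knockout of the transcription factor PU.1. The 9 genes are Trp53, Mdm2 and Cdkn1a of the p53 pathway, the cell cycle inhibitors Cdkn2a, Cdkn2b and Cdkn2c, and the senescence-linked genes Lmnb1, Glb1 and Gdf15. They were given as a list of gene symbols and were found in the deposited table by Ensembl identifier, where they are 9 of 35122 genes. All 9 passed the filter on low counts, which left 13925 genes for testing.

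RNA came from epididymal fat of male C57BL/6 mice on standard chow, with 1 mouse per library. The fat pads were digested with collagenase and the floating layer was taken, so that the samples are an adipocyte fraction and not sorted cells. Both groups carry floxed alleles of Spi1, the gene of PU.1, with 1 exon between loxP sites. The 3 control mice (PU.1 fl/fl) have no Cre, and the 3 aPU.1KO mice (AdipoqCre_PU.1 fl/fl) carry Cre under the adiponectin promoter, which is active in fat cells and not in macrophages or other cells of the depot. All 6 mice were 10 to 11 months old by their labels, whereas the study describes them as older than that. Mice were numbered 1 to 3 within a group by label order, and equal numbers do not pair animals across groups.

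Cellular senescence is a lasting exit from the cell cycle after damage or stress. In its best known branch, DNA damage frees p53 (Trp53) from Mdm2, the ubiquitin ligase that destroys it, and p53 switches on Cdkn1a, whose product p21 blocks cyclin-dependent kinases. The INK4 proteins encoded by Cdkn2a, Cdkn2b and Cdkn2c block Cdk4 and Cdk6 and so keep the retinoblastoma protein active. Senescent cells typically lose lamin B1 (Lmnb1), carry more lysosomal beta-galactosidase (Glb1), and secrete cytokines, proteases and stress factors such as Gdf15. In obese and aging fat, senescence has been described both in adipocytes and in the progenitors and macrophages around them.

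The libraries held between 20550252 and 69283842 counts, control library 1 being the deepest by far. Levels are given below as CPM, the count scaled to the library total and its TMM factor, and 3 counts, taken as the floor, were worth between 0.0413 and 0.152 CPM. Spi1 was at 24.3, 6.35 and 26.7 CPM in the control mice and at 3.20, 1.22 and 4.17 CPM in the aPU.1KO mice, without overlap (adjusted p = 0.0788 in edgeR). The study still found some PU.1 in knockout adipocytes, and proposes incomplete recombination or contaminating cells such as macrophages. The part of each cell type in the Spi1 values was not tested. Adipoq, the adiponectin gene, which marks fat cells, was abundant in all 6 libraries, with 2448 to 2847 CPM in controls against 3359 to 3943 CPM in aPU.1KO mice. Control mouse 2 stood apart from the other control mice. Its summed level of 14 macrophage markers was 503 CPM, against 1601 and 1548 CPM in control mice 1 and 3 and 270 to 351 CPM in the aPU.1KO mice. The sum of 10 adipose progenitor markers was 1350 to 1811 CPM in controls against 735 to 1057 CPM in aPU.1KO mice without overlap. The sum of 8 endothelial markers overlapped, at 513 to 741 CPM and 307 to 661 CPM. The sum of 8 liver-type genes, which fat cells are not known for, was 42.9 to 68.9 CPM in controls against 17.1 to 24.2 CPM in aPU.1KO mice, with a median log2 fold change of -3.92. All 8 were lower by the unadjusted rule, an edgeR p under 0.05, and 4 at an adjusted p under 0.05, beside 13.7% lower and 0.237% of all genes. Most of the sum was Alb, at 34.7 ± 10.3 CPM in controls and 19.0 ± 3.02 CPM in aPU.1KO mice (log2 fold change -0.87). Fgb, Ttr and Apoa1 had 3 counts or fewer in each aPU.1KO library and passed the count filter through the control group alone. The size of their fold changes, and so of the median, is therefore uncertain. Mesothelial markers summed to 4.72 to 18.3 CPM against 6.86 to 8.86 CPM, and lymphocyte markers to 4.29 to 6.54 CPM against 2.64 to 3.74 CPM. No gene of these lists was at the floor in all 6 libraries, and of 9 genes of the response to tissue dissociation 0 differed at an unadjusted p under 0.05 in edgeR and 0 were called by DESeq2, with 7 of the 9 estimates higher. Of all genes, 11.9% were higher and 13.7% lower by that unadjusted rule, and DESeq2 called 4.69% and 8.73%. Their sum was 2712 to 3367 CPM in controls against 4007, 6290 and 2187 CPM in aPU.1KO mice 1, 2 and 3, and aPU.1KO mouse 2, the highest, was also the lowest mouse for Cdkn1a, Cdkn2a, Cdkn2b, Mdm2 and Glb1; the part of this response was not tested. In such bulk RNA, fewer cells of a type and less RNA per cell cannot be told apart.

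All 9 genes were detected in every mouse, and 8 of them had a lower mean in aPU.1KO adipocytes. The exception was Cdkn2c, which was higher. Lmnb1 and Cdkn1a separated the groups most clearly, at 2.22-fold and 1.74-fold higher in control mice, while Gdf15 had the largest log2 fold change with the largest standard error. No gene of the 9 passed an adjusted p under 0.05 in the quasi-likelihood test of edgeR (Benjamini-Hochberg adjustment over all genes tested), where 0.237% of all genes tested did so. At an unadjusted p under 0.05, 5 of the 9 were lower (Lmnb1, Cdkn1a, Mdm2, Trp53 and Gdf15) and 0 were higher, where 13.7% of all genes were lower and 11.9% higher. DESeq2, the tool of the study, called 2 of the 9 lower at an adjusted p under 0.05, Lmnb1 and Cdkn1a, beside 8.73% of all genes, and limma-voom called 0. The median log2 fold change of the 9, aPU.1KO over control, was -0.44, and that of all genes tested was 0.01.

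**Figure D1:**
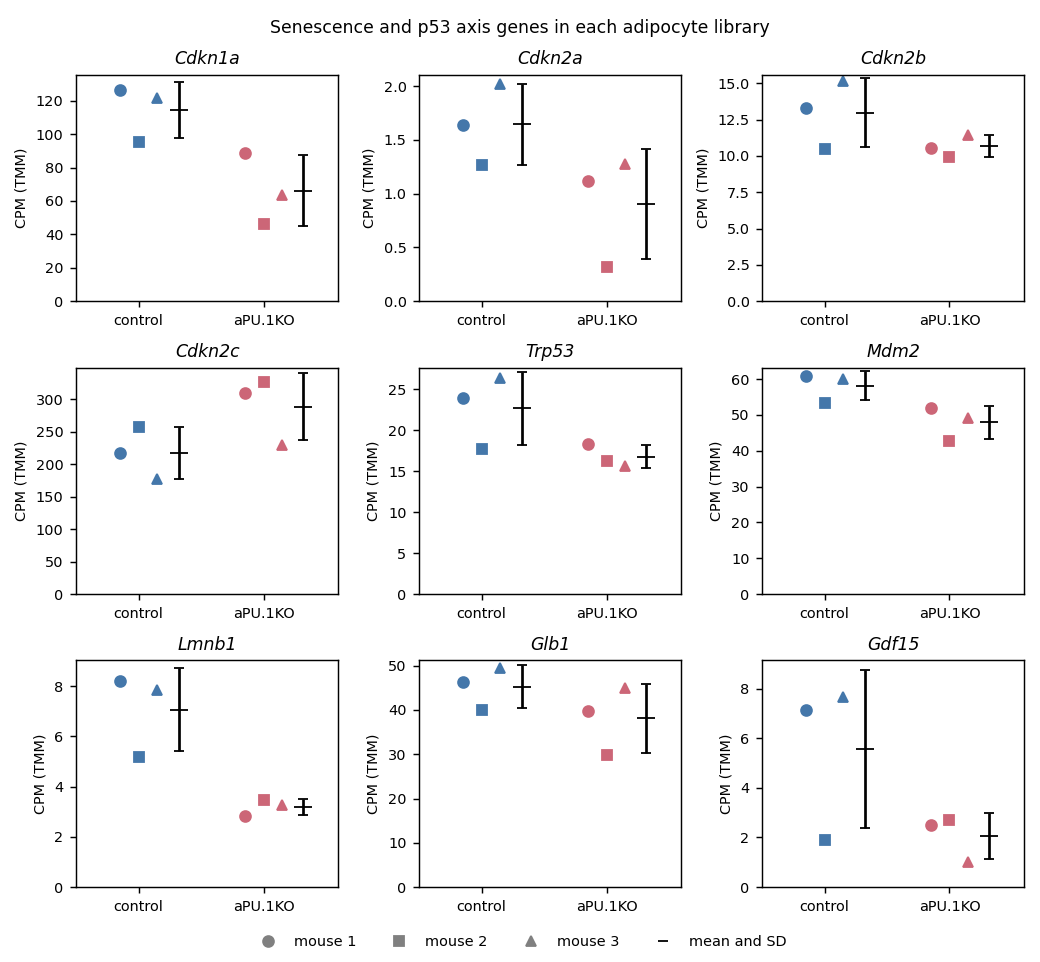
Level of each of the 9 genes in every adipocyte library, in CPM scaled by TMM factors on axes that start at 0. Points are single mice (circle, square and triangle for mice 1, 2 and 3 of a group, which are not paired between groups), and bars are the mean and SD over 3 mice. Cdkn1a, Mdm2 and Lmnb1 have no overlap between groups, and the square of control mouse 2 is the control nearest to the aPU.1KO mice in each panel.

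Levels between genes were compared per length, as CPM per kb of merged exons. Cdkn2c was the most abundant of the 9, at 81.0 ± 14.8 CPM per kb in control mice and 107 ± 19.3 CPM per kb in aPU.1KO mice (SD, n = 3). Cdkn1a followed at 32.3 ± 4.74 and 18.6 ± 5.95 CPM per kb. Glb1 was at 15.1 and 12.7, Mdm2 at 11.4 and 9.44, Cdkn2b at 9.33 and 7.67 and Trp53 at 5.60 and 4.15 CPM per kb in control and aPU.1KO mice. The lowest levels per kb were those of Gdf15 (3.00 and 1.12), Lmnb1 (2.39 and 1.08) and Cdkn2a (1.40 and 0.772). The order of the means was the same in both groups. Among neighbours in that order, the mice of Mdm2 and Cdkn2b and those of Gdf15 and Lmnb1 overlapped in the control group. In the aPU.1KO group the overlapping neighbours were Cdkn1a and Glb1, Glb1 and Mdm2, Gdf15 and Lmnb1, and Lmnb1 and Cdkn2a. The INK4 family thus held both the most abundant of the 9 genes and the least abundant.

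**Figure D2:**
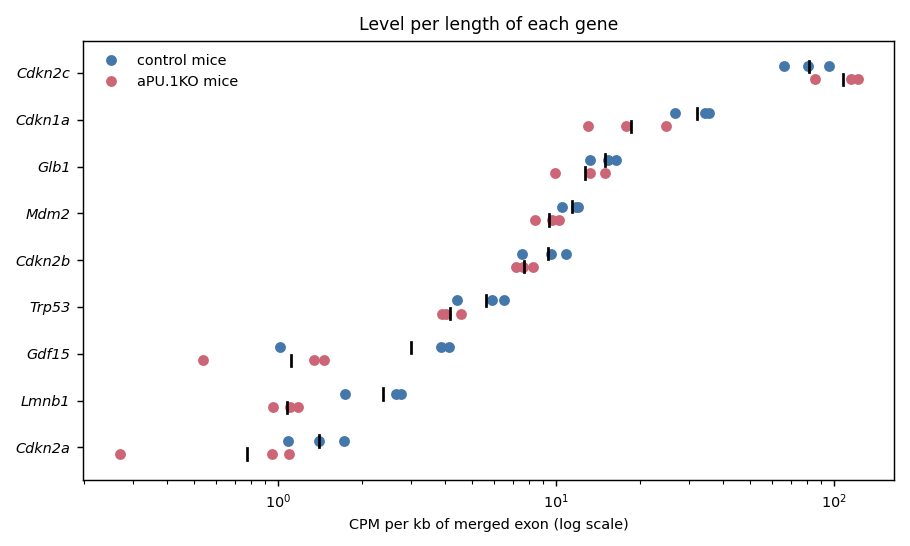
Level per length of the 9 genes, in CPM per kb of merged exon on a log scale, with each point a mouse and each bar the group mean. Cdkn2c lies above all other genes in both groups, and Cdkn2a is the lowest by mean.

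The p53 gene itself came first. Trp53 (ENSMUSG00000059552; chr11:69580359-69591873, plus strand, GRCm38) was at 23.9, 17.8 and 26.3 CPM in control mice 1, 2 and 3 and at 18.4, 16.3 and 15.7 CPM in aPU.1KO mice 1, 2 and 3. Control mouse 2 fell within the aPU.1KO range, and the other control mice lay above it. Its log2 fold change was -0.44 (SE 0.16, 95% interval -0.82 to -0.06), a 1.35-fold higher mean in control mice, with an adjusted p of 0.152 from edgeR. Without control mouse 2 the log2 fold change was -0.59 and the edgeR adjusted p 0.0354, the lowest over the 15 alternatives, among which the highest was 0.451 without control mouse 1.

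Mdm2 (ENSMUSG00000020184; chr10:117688875-117710758, minus strand), which is both the inhibitor of p53 and one of its target genes, had the smallest standard error of the 9. Its levels were 61.0, 53.5 and 60.1 CPM in the control mice and 52.0, 42.9 and 49.1 CPM in the aPU.1KO mice. The groups did not overlap, by a small margin between aPU.1KO mouse 1 and control mouse 2. The estimate on the log2 scale was -0.28 (SE 0.10, 95% interval -0.51 to -0.05; edgeR adjusted p = 0.142), and no alternative took its adjusted p below 0.0994.

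Cdkn1a (ENSMUSG00000023067; chr17:29090976-29100727, plus strand), which encodes p21, was at 126.5, 95.3 and 121.9 CPM in the control mice. In aPU.1KO mice 1, 2 and 3 it was at 88.5, 46.5 and 63.4 CPM, again with all 3 below the lowest control. The means were 114.6 ± 16.8 CPM in controls against 66.1 ± 21.1 CPM in aPU.1KO mice (SD, n = 3), a log2 fold change of -0.79 (SE 0.24, 95% interval -1.35 to -0.24; edgeR adjusted p = 0.107). DESeq2 gave -0.81 with an adjusted p of 0.0158, the lowest of the alternatives, whose highest was 0.387 in edgeR without control mouse 1. A transcript of unknown coding status on the opposite strand overlaps Cdkn1a by 273 bp and is not a row of the table, so that reads of the overlap could have been counted for Cdkn1a. Cdkn1a, Mdm2 and Lmnb1 are the 3 genes of the 9 whose groups did not overlap, all lower in aPU.1KO mice, where 15.5% of all genes tested had that pattern.

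The stretches before the start sites of these 3 genes of the p53 pathway are shown because Cdkn1a is a p53 target, and the stretch of Cdkn2b because it holds the cyclic AMP response element of the set. Capitals mark the p53 full site of Cdkn1a, a p53 half-site in Trp53 and in Mdm2, and that response element in Cdkn2b. A further half-site of Cdkn1a, 73 to 64 bases before the start, is left in lower case. All are from RefSeq, read 5′ to 3′ on the gene's own strand (GRCm38.p6). The Cdkn1a stretch is chr17:29090879-29090968 (plus strand), the Trp53 stretch chr11:69580259-69580348 (plus strand), the Mdm2 stretch chr10:117710879-117710968 (minus strand) and the Cdkn2b stretch chr4:89311043-89311132 (minus strand).
Cdkn1a: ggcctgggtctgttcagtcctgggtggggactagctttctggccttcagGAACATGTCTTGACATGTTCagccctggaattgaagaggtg
Trp53: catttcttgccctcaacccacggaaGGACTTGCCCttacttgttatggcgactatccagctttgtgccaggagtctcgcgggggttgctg
Mdm2: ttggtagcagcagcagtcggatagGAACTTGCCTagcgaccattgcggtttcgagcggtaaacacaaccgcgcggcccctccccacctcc
Cdkn2b: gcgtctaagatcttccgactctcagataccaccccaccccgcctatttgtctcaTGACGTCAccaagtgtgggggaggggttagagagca

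In the RefSeq windows, which run from 250 bases before to 50 bases after each start, 12 windows covered 8 of the 9 genes, and none was used for Lmnb1. Both strands were searched. The Cdkn1a window of the upstream start held a p53 full site with at most 1 base off the consensus, 51 to 32 bases before the start, a match found in 0.067% of 32851 windows of all genes. A p53 half-site, found in 8.36% of all windows, was in the windows of Trp53 (75 to 66 bases before the start), Mdm2 (186 to 177 bases) and Cdkn1a, where 1 of its 2 matches is a part of the full site. The cyclic AMP response element TGACGTCA (1.79% of all windows) was 46 to 39 bases before the start of Cdkn2b, and the E2F site TTTCCCGC (1.07%) was in the upstream window of Cdkn2a. The GC box GGGCGG was in 7 of the 12 windows and in 35.7% of all, and the PU.1 site GAGGAAGT in 0 of the 12 and in 3.2% of all. These matches describe letters in short windows and do not say which factor was bound.

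Ratios within a mouse do not depend on library scaling, and 3 were compared. The log2 ratio of Mdm2 to Trp53 was 1.38 ± 0.20 in control and 1.52 ± 0.13 in aPU.1KO mice (SD, n = 3; exact two-sided permutation p = 0.4). That difference of 0.14 was 0.045 without control mouse 3 and 0.24 without control mouse 2. The log2 ratio of Cdkn1a to Trp53 was 2.35 ± 0.12 and 1.93 ± 0.38 (exact permutation p = 0.2, 0.3 after Benjamini-Hochberg adjustment over the 3 ratios). Its lowest value, 1.51, was that of aPU.1KO mouse 2, and the difference was -0.20 without that mouse and -0.41 with it. The log2 ratio of Cdkn2c to Cdkn1a, the inhibitors most abundant per length, was 0.78, 1.43 and 0.54 in the control mice and 1.81, 2.81 and 1.85 in the aPU.1KO mice. Its groups did not overlap, the difference was 1.24, and the exact permutation p of 0.1 (adjusted 0.3) is the smallest that 3 mice against 3 can give. As Cdkn2c was higher and Cdkn1a lower in aPU.1KO mice, this ratio joins those differences and is not a separate result. How often such ratios separate the groups over all genes was not computed.

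Among the INK4 genes, Cdkn2c (ENSMUSG00000028551; chr4:109660876-109667189, minus strand), which encodes p18 and is known to increase as preadipocytes mature, was at 217, 257 and 178 CPM in the control mice. It was at 310, 326 and 229 CPM in the aPU.1KO mice. aPU.1KO mice 1 and 2 were above all control mice, and aPU.1KO mouse 3 lay between control mice 1 and 2. As a log2 fold change this was 0.41 (SE 0.18, 95% interval -0.02 to 0.84; edgeR adjusted p = 0.215), and it stayed between 0.28 and 0.55 when each mouse was left out. The summed level of 10 adipocyte markers was also higher, at 26700 to 29120 CPM in controls against 32370 to 38920 CPM in aPU.1KO mice. Of these 10 genes, 9 had a higher estimate, 8 of them by the unadjusted rule, and 1 a lower one by that rule, Lep, named here after its values were seen, beside 11.9% of all genes higher and 13.7% lower. The part of fat cell content in the Cdkn2c difference was not tested.

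Cdkn2a (ENSMUSG00000044303; chr4:89274471-89294653, minus strand) encodes both p16 and p19ARF from overlapping exons, and a gene-level count cannot separate them. It had 119, 29 and 51 counts in the control libraries and 22, 7 and 27 in the aPU.1KO libraries. These were 1.64, 1.27 and 2.02 CPM against 1.12, 0.316 and 1.28 CPM. aPU.1KO mouse 3 was level with control mouse 2, and aPU.1KO mouse 2, with 7 counts, was far below the rest. The log2 fold change of -0.87 had a 95% interval of -2.04 to 0.30 (SE 0.49; edgeR adjusted p = 0.313) and was -0.46 without aPU.1KO mouse 2, so no difference could be shown with these mice and counts.

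Cdkn2b (ENSMUSG00000073802; chr4:89306299-89311039, minus strand), the neighbouring gene for p15, was measured more precisely. Its levels were 13.3, 10.5 and 15.2 CPM in the control mice and 10.6, 9.94 and 11.5 CPM in the aPU.1KO mice. Control mouse 2 was within the aPU.1KO range. The log2 fold change was -0.28 (SE 0.16, 95% interval -0.67 to 0.10; edgeR adjusted p = 0.312), with adjusted p values of 0.122 to 0.639 over the alternatives. It was -0.17 without control mouse 3 and -0.42 without control mouse 2.

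Lmnb1 (ENSMUSG00000024590; chr18:56707813-56753424, plus strand) encodes lamin B1 of the nuclear lamina. It had the smallest p of the 9 genes. Its levels were 8.19, 5.17 and 7.85 CPM in the control mice and 2.85, 3.48 and 3.27 CPM in the aPU.1KO mice. The aPU.1KO mice formed a tight group below all controls, of which control mouse 2 was the nearest. The means were 7.07 ± 1.66 and 3.20 ± 0.32 CPM (SD, n = 3), a log2 fold change of -1.15 (SE 0.22, 95% interval -1.68 to -0.62; edgeR adjusted p = 0.0759). The adjusted p was 0.000523 in DESeq2 and 0.0110 in edgeR without control mouse 2, and at most 0.313, without control mouse 1. When each mouse was left out the log2 fold change stayed between -1.34 and -1.04. The summed macrophage and proliferation markers were lower in the same mice, and their part in the Lmnb1 difference was not tested.

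Glb1 (ENSMUSG00000045594; chr9:114401076-114474898, plus strand), the lysosomal beta-galactosidase, was at 46.4, 40.0 and 49.5 CPM in the control mice and at 39.7, 29.7 and 45.0 CPM in the aPU.1KO mice. aPU.1KO mouse 3 was above control mouse 2, so the groups overlapped. The log2 fold change was -0.25 (SE 0.16, 95% interval -0.64 to 0.14; edgeR adjusted p = 0.377), and the interval leaves room for an increase as well as for a decrease. It was -0.10 without aPU.1KO mouse 2 and -0.38 without aPU.1KO mouse 3. Glb1 shares 165 bp of exon with Tmppe on the same strand, a gene that has a row of its own, and reads of that stretch may have been split between them.

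Gdf15 (ENSMUSG00000038508; chr8:70629393-70632456, minus strand), a stress cytokine that lowers food intake through the brainstem receptor Gfral, had the largest standard error of the 9. It had 517, 43 and 193 counts in the control libraries and 49, 60 and 21 in the aPU.1KO libraries, or 7.12, 1.88 and 7.65 CPM against 2.49, 2.71 and 0.995 CPM. Control mouse 2 was below aPU.1KO mice 1 and 2, and the other control mice were above all aPU.1KO mice. The log2 fold change was -1.44 (SE 0.59, 95% interval -2.83 to -0.04; edgeR adjusted p = 0.186). Without control mouse 2 it was -1.85 with an edgeR adjusted p of 0.0437, the lowest of the alternatives, which reached 0.494 without control mouse 1.

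**Figure D3:**
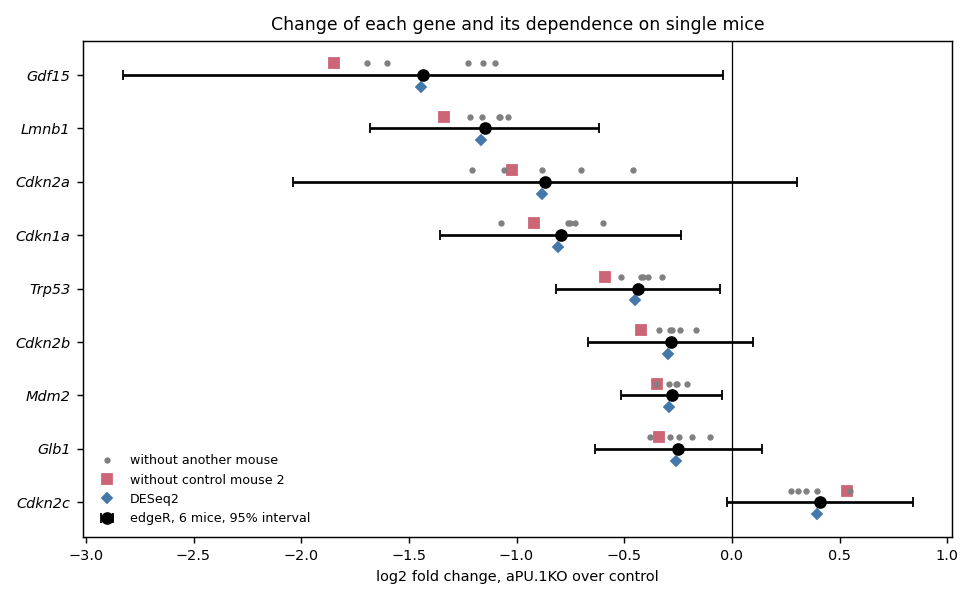
Log2 fold change of each of the 9 genes, aPU.1KO over control, with the edgeR estimate and 95% interval from 6 mice (black), the DESeq2 estimate (blue diamonds), the edgeR estimate with control mouse 2 left out (red squares) and with each other mouse left out (grey points). The sign of each estimate is kept throughout, and the interval lies below 0 for Gdf15, Lmnb1, Cdkn1a, Trp53 and Mdm2.

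The mice differed together across these genes. Control mouse 2 was the control mouse nearest to the aPU.1KO mean in 9 of 9 genes, where this was so for 47.7% of all genes tested. Against the control mean, control mouse 2 was at -0.27 for Cdkn1a, -0.35 for Trp53, -0.45 for Lmnb1 and -1.56 for Gdf15 on the log2 scale. The macrophage marker sum of that mouse was at -1.27, its proliferation marker sum at -0.61 and its adipose progenitor sum at -0.24 on the same scale. Its adipocyte marker sum was at 0.00 and its endothelial marker sum at 0.23. In aPU.1KO mice the macrophage sum was at -2.17 to -1.79, the adipose progenitor sum at -1.12 to -0.60 and the endothelial sum at -1.04 to 0.07. Of the 14 macrophage markers 12 were lower by the unadjusted rule, and 1 of these, Mrc1, also at an adjusted p under 0.05 (0.0389, edgeR), beside 13.7% and 0.237% of all genes. The remaining 2, Cd163 and Mertk, had log2 fold changes of 0.29 and 0.06. Of the 10 progenitor markers 7 were lower by the unadjusted rule, against the same 13.7%. The part of these cell types in the values of the 9 genes was not tested, and without control mouse 2 edgeR called Lmnb1, Trp53 and Gdf15 lower, beside 6.93% of all genes tested.

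**Figure D4:**
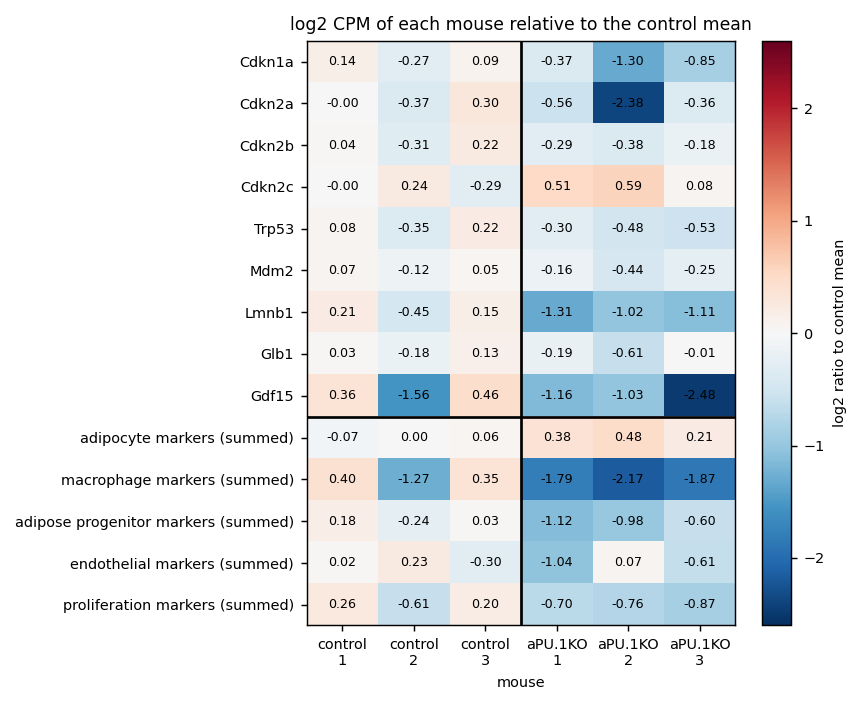
Log2 ratio of each mouse to the control mean for the 9 genes (upper rows) and for the summed CPM of 5 marker lists (lower rows), on a colour scale from blue (lower) to red (higher). Control mouse 2 is on the aPU.1KO side for each of the 9 genes and for the macrophage, proliferation and adipose progenitor sums, at -1.27, -0.61 and -0.24. Its endothelial sum is at 0.23, against -1.04, 0.07 and -0.61 in aPU.1KO mice 1, 2 and 3.

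Genes with the most similar profile over the 6 libraries were found by Pearson correlation of log2 CPM, among 9611 genes of at least moderate level, as a description only, since the libraries share the group difference and control mouse 2. For Cdkn1a they were Cyb5r4, a reductase (r = 0.988), Gas6, a ligand of the TAM receptors (r = 0.988), and Mdm2 itself (r = 0.987), and 71 genes were above 0.95. For Trp53 they included Mgp, the matrix Gla protein (r = 0.994), and Gbp2, an interferon-inducible GTPase (r = 0.991). For Mdm2 they were Wdr7 (r = 0.993), the hyaluronan receptor Cd44 (r = 0.993) and Colgalt1, which glycosylates collagen (r = 0.991). Similar profiles differed much in size: Cd44 was at 33.1 to 88.7 CPM in controls against 7.32 to 22.3 CPM in aPU.1KO mice, a far wider range than that of Mdm2.

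The other genes of the pathways were counted in 8 lists. In none of them did a gene pass an adjusted p under 0.05 in edgeR or limma-voom, and counts at an unadjusted p under 0.05 and by DESeq2 are given for each. Over all genes the unadjusted rule held for 3575 genes with all mice. That number was 1718, 3738 and 2447 without control mice 1, 2 and 3, and 2966, 3541 and 3922 without aPU.1KO mice 1, 2 and 3. Counts with a mouse left out are to be read beside these numbers. Of 15 regulators of p53 tested, 2 were higher by the unadjusted rule and 0 lower, beside 11.9% and 13.7% of all genes, a share near the background, with a median log2 fold change of 0.05 and 0 called by DESeq2. Rchy1, a ubiquitin ligase for p53, was at 21.1 ± 1.30 CPM in controls against 26.1 ± 2.27 CPM in aPU.1KO mice (log2 fold change 0.31, edgeR adjusted p = 0.121), and Cop1, another such ligase, at 100.6 to 120.6 CPM against 125.5 to 135.4 CPM (0.24, adjusted p = 0.156). That count of 2 was 1 without control mouse 1, control mouse 2 or aPU.1KO mouse 2 and 4 without aPU.1KO mouse 3. In both ligase genes the groups did not overlap, as in 16.7% of all genes in that direction. Trp63, the p63 gene, had 1.74 ± 0.61 and 3.12 ± 1.14 CPM with overlap, and Mdm4, the partner of Mdm2, had 70.3 ± 5.54 and 77.9 ± 10.3 CPM with overlap. Trp73 was at the floor in all 6 libraries.

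Of 29 p53 target genes tested other than Cdkn1a and Mdm2, 4 were higher and another 4 lower by the unadjusted rule. These shares were near the 11.9% and 13.7% of all genes, with a median log2 fold change of -0.17, and DESeq2 called 2 higher and 1 lower, beside 4.69% and 8.73% of all genes. The unadjusted count of 8 in all was 2 without control mouse 1 and 4 without control mouse 3. Apaf1, the scaffold of the apoptosome, was at 21.0, 14.1 and 19.3 CPM in the control mice and at 6.81, 8.18 and 7.72 CPM in the aPU.1KO mice. Its groups were well apart (log2 fold change -1.26, SE 0.18, edgeR adjusted p = 0.0677, DESeq2 adjusted p = 4.33e-07). Phlda3, an inhibitor of Akt, went the other way, from 272 ± 13.6 to 336 ± 12.7 CPM (0.30, edgeR adjusted p = 0.0935), as did Rrm2b, the p53-inducible ribonucleotide reductase subunit, from 33.8 ± 2.75 to 43.1 ± 2.51 CPM (0.35, edgeR adjusted p = 0.0909).

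The kinases, cyclins, pocket proteins, E2F factors and further inhibitors around p21 and the INK4 proteins had a median log2 fold change of 0.04 over 18 genes. At an unadjusted p under 0.05, 2 were lower and 0 higher, beside 13.7% and 11.9% of all genes, and DESeq2 called 1 lower, beside 8.73%. The unadjusted count of 2 fell to 1 on leaving out control mouse 1, control mouse 3 or aPU.1KO mouse 2 and became 4 on leaving out aPU.1KO mouse 1. Ccnd1, the cyclin D1 gene, was at 27.4, 25.2 and 21.9 CPM in the control mice and at 9.10, 14.7 and 13.1 CPM in the aPU.1KO mice (log2 fold change -1.01, SE 0.19, edgeR adjusted p = 0.0729). Cdk6, a target of the INK4 proteins, was at 16.1 ± 4.01 and 9.44 ± 3.06 CPM without overlap (-0.78, edgeR adjusted p = 0.158). Cdk4 was at 27.0 ± 4.59 and 27.6 ± 2.98 CPM and Rb1 at 104.5 ± 7.36 and 112.7 ± 11.9 CPM, both with overlap. Cdkn2d, the remaining INK4 gene (p19), was at 7.65 ± 1.03 and 9.69 ± 1.10 CPM (0.34, edgeR adjusted p = 0.237), on the same side as Cdkn2c.

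Proliferation markers had the lowest median of the 8 lists, at -1.18 on the log2 scale. All 15 had a lower estimate, 13 of them at an unadjusted p under 0.05, and DESeq2 called 9 lower, beside 48.0%, 13.7% and 8.73% of all genes. Mki67, the Ki-67 gene, was at 23.6, 9.24 and 18.5 CPM in the control mice and at 4.83, 2.17 and 3.36 CPM in the aPU.1KO mice (log2 fold change -2.32, SE 0.42, edgeR adjusted p = 0.0725). Top2a, topoisomerase II alpha of dividing cells, was at 12.7 ± 5.48 and 3.57 ± 0.75 CPM (-1.84, edgeR adjusted p = 0.0764). Ccna2, cyclin A2, was at 4.57 ± 2.15 and 1.22 ± 0.37 CPM (-1.91, edgeR adjusted p = 0.0817). Macrophages and progenitors of fat can divide, their marker sums were lower in the same mice, and their part in these values was not tested. Of these 15 genes, 6 had an unadjusted p under 0.05 when control mouse 1 was left out, 7 when control mouse 3 was, and 8 when aPU.1KO mouse 1 was. Over all genes that number also fell, from 3575 to 1718, 2447 and 2966 in turn.

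Secreted factors of the senescence-associated phenotype had a median log2 fold change of -0.79 over 30 genes tested. At an unadjusted p under 0.05, 15 were lower and 3 higher, beside 13.7% and 11.9% of all genes, and DESeq2 called 12 lower and 2 higher, beside 8.73% and 4.69%. Il1b, the interleukin-1 beta gene, was at 13.6, 3.98 and 11.9 CPM in the control mice and at 2.29, 1.76 and 2.23 CPM in the aPU.1KO mice (log2 fold change -2.24, SE 0.46, edgeR adjusted p = 0.0764). Igfbp3, an IGF binding protein, was at 15.4 ± 2.74 and 7.78 ± 1.68 CPM (-0.98, edgeR adjusted p = 0.0764). Vegfa, the vascular growth factor, was higher, at 170, 235 and 162 CPM in the control mice and 332, 421 and 300.4 CPM in the aPU.1KO mice (0.90, SE 0.19, edgeR adjusted p = 0.0766). Csf2 was at the floor in all libraries. Many of these cytokines are also products of macrophages, whose summed markers were lower in the same mice, and the share of that cell type in the values was not tested.

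Around Lmnb1, 3 of 14 other genes of the nuclear lamina and chromatin were lower and 1 was higher at an unadjusted p under 0.05, beside 13.7% and 11.9% of all genes, with a median of -0.19, and DESeq2 called 1 in each direction, beside 8.73% lower and 4.69% higher. The unadjusted count of 4 in all was 0 when control mouse 1 was left out, 2 for control mouse 3, aPU.1KO mouse 1 or aPU.1KO mouse 3, 7 for control mouse 2 and 8 for aPU.1KO mouse 2. Lbr, the lamin B receptor, was at 22.5, 20.4 and 20.2 CPM in the control mice and at 11.5, 18.6 and 14.5 CPM in the aPU.1KO mice (log2 fold change -0.50, edgeR adjusted p = 0.141). Lmna, the A-type lamin gene, was at 179.6 ± 21.8 and 148 ± 8.74 CPM with overlap (-0.28, edgeR adjusted p = 0.172). Hmga1, a chromatin protein of senescent foci, was at 43.3, 17.0 and 43.7 CPM in the control mice and at 16.4, 20.2 and 14.5 CPM in the aPU.1KO mice. Control mouse 2 was thus inside the aPU.1KO range for Hmga1. Sun2, which joins the lamina to the cytoskeleton, was higher at 179.6 ± 5.58 and 215 ± 4.23 CPM without overlap (0.26, edgeR adjusted p = 0.0977).

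Around Glb1, 17 of 20 lysosomal genes had a lower estimate, 5 of them at an unadjusted p under 0.05, and 0 were higher at that level, with a median of -0.20, and DESeq2 called 3 lower. Over all genes 48.0% had a lower estimate, 13.7% were lower by the unadjusted rule and 8.73% were called lower by DESeq2. The count of 5 was 2 without control mouse 1 or control mouse 3 and 3 without aPU.1KO mouse 2. Macrophages are rich in lysosomes, their marker sum was lower in the same mice and in control mouse 2, and their part in these values was not tested. Ctsa and Neu1 encode the proteins that bind beta-galactosidase in the lysosome. Ctsa was at 163, 114 and 155 CPM in the control mice and at 112, 97.7 and 113 CPM in the aPU.1KO mice (log2 fold change -0.42, edgeR adjusted p = 0.136), whereas Neu1 was at 27.0 ± 0.95 and 27.2 ± 3.29 CPM. Man2b1, a lysosomal mannosidase, was at 168 ± 24.6 and 113 ± 22.1 CPM (-0.57, edgeR adjusted p = 0.114). Psap, the precursor of the saposins, was at 2869, 1844 and 2909 CPM in controls against 1699, 1349 and 1724 CPM in aPU.1KO mice (-0.68, edgeR adjusted p = 0.115).

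Around Gdf15, the genes of the integrated stress response and of the Gdf15 receptor had a median of 0.06 over 12 genes tested, with 7 estimates above 0 and 5 below. Both by the unadjusted rule and in DESeq2, 1 gene was higher and another lower, where the unadjusted rule held for 11.9% of all genes higher and 13.7% lower and DESeq2 called 4.69% and 8.73%. The unadjusted count of 2 in all was 5 without aPU.1KO mouse 3. Atf4 and Ddit3, transcription factors known to switch on Gdf15 under stress, were at 121 ± 5.88 and 139 ± 46.1 CPM and at 23.2 ± 2.26 and 26.4 ± 2.97 CPM, both with overlap. Chac1, a glutathione-degrading target of that response, was at 5.26, 5.38 and 6.78 CPM in the control mice and at 7.27, 15.6 and 12.8 CPM in the aPU.1KO mice (log2 fold change 1.04, SE 0.29, edgeR adjusted p = 0.0980). Asns, asparagine synthetase, was at 50.1 ± 6.51 and 69.0 ± 19.6 CPM with overlap. Gfral had 0 counts in all 6 libraries. Ret, the kinase partner of that receptor, was at 54.1 ± 3.74 and 33.5 ± 8.73 CPM without overlap (-0.69, edgeR adjusted p = 0.0901).

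**Figure D5:**
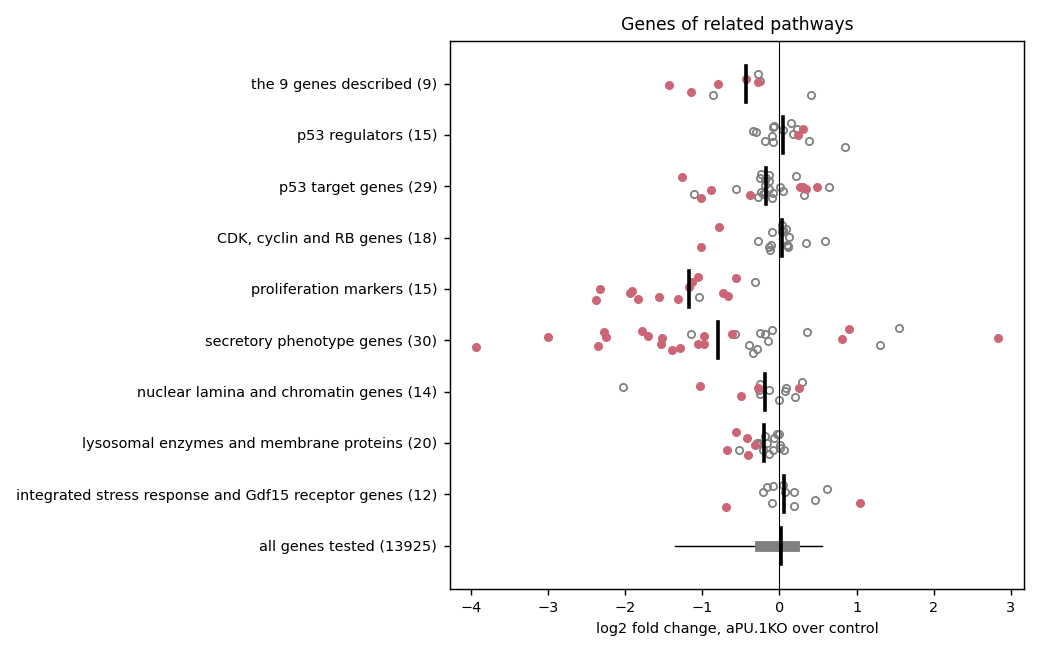
Log2 fold change, aPU.1KO over control, of the 9 genes and of the genes tested in 8 related lists (number in brackets), with filled points for an unadjusted edgeR p under 0.05 and a bar at each median. The lowest row gives all 13925 genes tested, with a box from the 25th to the 75th and a line from the 5th to the 95th percentile. Proliferation markers and secretory phenotype genes have the lowest medians, -1.18 and -0.79.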

How the data were processed

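The authors quantified reads with Salmon, summed transcript estimates to genes and deposited estimated counts as whole numbers without normalization, 1 column per mouse. The submitters' notes name FastQC and GRCm38. The Salmon version and annotation are not given in the sources used here, nor is whether strand was used. Of 35122 identifiers, 35102 were matched to symbols in GENCODE M21 (GRCm38), and the other 20 held 0.00188% of counts. Promoter sequences are from RefSeq (GRCm38.p6).

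Groups were compared with edgeR 4.0.16 in R 4.3.3 (filterByExpr, TMM, glmQLFit defaults, glmQLFTest, Benjamini-Hochberg adjustment over 13925 genes). DESeq2 1.42.0, limma-voom (limma 3.58.1), other scalings, filters and dispersions, control library 1 thinned to the median depth, and leaving out each mouse were the 15 alternatives. Depth gave 20550252 to 69283842 counts per library. No 2 libraries of a group were duplicates (chi-square per degree of freedom 19.0 or more). The edgeR p-values set the group difference against the spread between mice taken as independent. The labels do not say that the mice came from separate litters. Figures used matplotlib 3.10.9 in Python 3.11.15.

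On simulated data for this comparison (13925 genes), edgeR called 68 of 100 genes changed by 1 and 99 of 100 changed by 2 on the log2 scale, and 11 unchanged genes. The simulation gave every gene the same dispersion and had no mouse that stood apart as control mouse 2 does. These shares are therefore not the power of the test on the real data.

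The 9 genes and all lists were chosen with earlier results of these data known. Named genes are the 9, the 3 genes with the smallest p in each pathway list, 10 genes linked to the 9 by function (such as Mdm4, Cdk4 and Gfral), Spi1, Adipoq, and the 3 genes most correlated with Cdkn1a, Trp53 and Mdm2 at a mean log2 CPM of at least 3. Outside this rule, Trp73 and Csf2 were named for being at the floor. Lep, Mrc1, Cd163, Mertk, Alb, Fgb, Ttr and Apoa1 of the marker lists were named after their values were seen. Profiles used an offset of 0.5 CPM. For Ddit3, a symbol with 2 identifiers, the one with more counts was used. Results for some genes named by this rule are not reported here.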

Additional observations from a re-analysis of the deposited data

How the results depend on the processing

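The 9 genes kept their sign under every alternative that could be computed. Of 134 gene-by-alternative values, 129 stayed on the same side of an adjusted p of 0.05 and 5 passed it: Lmnb1 and Cdkn1a in DESeq2, and Lmnb1, Trp53 and Gdf15 without control mouse 2. Cdkn2a could not be tested with at least 10 counts in every library. The number of the 9 called was 0 in edgeR, 2 in DESeq2 and 0 to 3 with each mouse left out, and the number lower at an unadjusted p under 0.05 was 5, and 2 to 6 with each mouse left out. It was 2 without control mouse 1, control mouse 3 or aPU.1KO mouse 2 and 3 without aPU.1KO mouse 3.

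Over all genes, edgeR called 33, and 5 with at least 10 counts in every library, 146 with no filter, 1869 in DESeq2 and 0 to 1193 with each mouse left out. It called 1193 without control mouse 2 and fewer than with all mice when any other was left out: 0 without control mouse 1, 5 without control mouse 3, 6 without aPU.1KO mouse 1, 7 without aPU.1KO mouse 2 and 8 without aPU.1KO mouse 3. At an unadjusted p under 0.05 it gave 3575 genes, and 1718 to 3922 with each mouse left out, the lowest without control mouse 1. The causes were not tested.

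From 0 called in each of the 8 lists, DESeq2 gave 3 p53 target genes, 1 CDK, cyclin and RB gene, 9 proliferation markers, 14 secretory genes, 2 lamina and chromatin genes, 3 lysosomal genes and 2 stress response genes. With no filter it was 1 p53 target gene, 1 CDK, cyclin and RB gene and 1 proliferation marker. Leaving out each mouse gave 0 to 1, 0 to 1, 0 to 11, 0 to 11, 0 to 1 and 0 to 3 in the first 6 of these lists, in each case highest without control mouse 2. The median of the secretory genes was -0.79, and -1.25 without aPU.1KO mouse 2 and -0.53 without control mouse 1 or control mouse 3. Without aPU.1KO mouse 2 the median of the proliferation markers, -1.02, was no longer the lowest, that of the p53 target genes was -0.09 and that of the lysosomal genes -0.13. The medians near 0 of the p53 regulators, the CDK, cyclin and RB genes and the stress response genes changed sign under at least 1 alternative. The lowest counts in a library were 7 for Cdkn2a, 21 for Gdf15 and 56 for Lmnb1. No paired analysis was possible because the mouse numbers in the labels are not shared between the groups. The study describes its controls as littermates, but the labels do not say which mice shared a litter.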
